A study of Mus musculus with 2 samples.

Results

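Promoters of isolated long intergenic noncoding RNA (lincRNA) genes were examined in single-cell ATAC-seq of hematopoietic stem cells (HSCs) from young and aged mice. A promoter was taken as the annotated transcription start site (TSS) of a lincRNA gene (GENCODE M21, mm10) with 1 kb on either side, and was kept when it lay on an autosome with no protein-coding TSS within 5 kb. This rule, which uses annotation only, gave 4587 promoters out of 5209 lincRNA promoters and out of 51229 promoters of all autosomal genes. There were 2 libraries, both of C57BL/6 bone marrow HSCs sorted as CD150+, c-kit+ and Sca-1+ cells without CD48, Flt3, CD34, IL-7 receptor or lineage (Lin) markers. The young library came from mice 10 weeks old and the aged library from mice 20 months old. The mice were otherwise untreated as far as the labels state, the study's methods describe female animals, and the number of mice behind each library is not given in the sources used here. With 1 library per age, no difference between ages could be set against the spread between animals, so values are given for each library without a test, and every 95% interval covers counting error or the spread over promoters only.

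LincRNAs are transcribed by RNA polymerase II from promoters of their own, and most are capped, spliced and polyadenylated but not translated. Many are made in small amounts and in few cell types, and some act on neighbouring genes through their transcription or as scaffolds for chromatin regulators. ATAC-seq does not measure their RNA. It measures how often a transposase cut the DNA of the promoter, which is a reading of open chromatin there. Where a protein-coding promoter lies close by, cuts in a lincRNA window can belong to the neighbour, and the isolation rule is meant to reduce this. The rule reads 1 TSS per gene, and 4505 of the 4587 members also had no start of any protein-coding transcript within 5 kb. It does not exclude a TSS inside the body of a protein-coding gene. There, 43 members lay on the same strand as the gene and 178 on the opposite strand.

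The analysis used 4887 young and 3405 aged cells, which held 50069575 and 38663214 unique fragments, with medians of 9890 and 11020 fragments per cell. The 2 libraries had 26 cell barcodes in common. Values are fragments per 1000000 in-peak fragments (FPM), and every promoter window has the same length, so a value near 1 in the young library stands for about 35 fragments over all its cells. The promoters of 9 HSC markers averaged 18.1 young and 18.3 aged FPM, against 4.27 and 4.50 for 5 B cell markers and 2.35 and 1.60 for 5 T cell markers. The erythroid (6 genes) and mature myeloid (7 genes) marker promoters averaged 8.05 and 3.23 FPM among young cells and 7.53 and 3.20 FPM among aged cells. The 4 megakaryocyte marker promoters were open in both, at 34.8 and 31.6 FPM. Of the HSC markers, Mecom was near the level of closed promoters at its annotated 5' end, with 0.519 and 0.535 FPM.

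Sequences are shown for the promoters that carry the contrasts described below. Each is the 200 bp around the position with the densest transposase cuts over both libraries, read from the mm10 (GRCm38) sequence on the strand of the gene, with matches to any of the 18 searched motifs in capitals. The first 4 belong to the promoters with the highest aged to young ratio, which all lie outside CpG-rich sequence. They are Gm12440 (chr3:99049395-99049594, plus strand), Gm31393 (chr14:37606949-37607148, minus strand), Gm45159 (chr7:90886819-90887018, plus strand) and Gm12860 (chr4:120615882-120616081, plus strand).
Gm12440: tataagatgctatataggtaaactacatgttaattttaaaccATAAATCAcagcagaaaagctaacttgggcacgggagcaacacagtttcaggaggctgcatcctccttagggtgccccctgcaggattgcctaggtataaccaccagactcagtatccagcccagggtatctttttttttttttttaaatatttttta
Gm31393: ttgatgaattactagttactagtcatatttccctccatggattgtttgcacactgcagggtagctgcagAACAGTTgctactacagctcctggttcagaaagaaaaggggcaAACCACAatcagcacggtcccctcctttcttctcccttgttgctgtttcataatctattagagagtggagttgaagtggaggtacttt
Gm45159: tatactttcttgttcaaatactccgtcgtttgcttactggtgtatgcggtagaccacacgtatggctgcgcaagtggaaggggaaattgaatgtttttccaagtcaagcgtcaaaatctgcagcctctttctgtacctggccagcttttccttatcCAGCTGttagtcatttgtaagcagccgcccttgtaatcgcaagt
Gm12860: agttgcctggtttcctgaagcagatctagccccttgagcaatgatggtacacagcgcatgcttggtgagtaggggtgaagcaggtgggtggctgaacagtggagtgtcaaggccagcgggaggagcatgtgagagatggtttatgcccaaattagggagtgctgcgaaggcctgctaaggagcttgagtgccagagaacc
The capitals mark a HOXA9 match in Gm12440, a MYB and a RUNX match in Gm31393, and an E-box in Gm45159, while the Gm12860 stretch holds none of the searched letters. The Gm12440 stretch held 48 young and 56 aged cuts, a smaller contrast than in its whole window. Cuts were 23 and 86 in Gm31393, 29 and 100 in Gm45159, and 61 and 194 in Gm12860.

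Next come the densest stretches of the 2 promoters with the lowest ratio, Gm12678 (chr4:44944575-44944774, plus strand) and A130077B15Rik (chr10:122569963-122570162, minus strand).
Gm12678: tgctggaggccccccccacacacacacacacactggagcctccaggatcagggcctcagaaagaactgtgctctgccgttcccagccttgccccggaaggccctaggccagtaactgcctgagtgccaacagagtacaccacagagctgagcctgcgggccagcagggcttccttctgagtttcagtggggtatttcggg
A130077B15Rik: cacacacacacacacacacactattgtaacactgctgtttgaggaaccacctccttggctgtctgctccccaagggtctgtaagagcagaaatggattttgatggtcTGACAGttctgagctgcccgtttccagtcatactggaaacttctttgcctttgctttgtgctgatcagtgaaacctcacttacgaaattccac
A MEIS match stands in A130077B15Rik and no match in Gm12678. The densest cuts lay 922 bp from the TSS in Gm12678, near the edge of its window, and 172 bp from it in A130077B15Rik. The last 2 come from the most open promoters apart from 3 at a ribosomal RNA sequence (described below), Gm6410 (chr8:4677818-4678017, plus strand) and 6720427I07Rik (chr13:48546553-48546752, minus strand), to show the CpG-rich sequence of 6 of the most open members. Neat1, also among the 10 most open, is not CpG-rich.
Gm6410: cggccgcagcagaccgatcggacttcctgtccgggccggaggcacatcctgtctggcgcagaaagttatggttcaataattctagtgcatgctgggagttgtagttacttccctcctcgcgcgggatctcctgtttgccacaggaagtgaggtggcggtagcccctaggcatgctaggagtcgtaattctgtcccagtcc
6720427I07Rik: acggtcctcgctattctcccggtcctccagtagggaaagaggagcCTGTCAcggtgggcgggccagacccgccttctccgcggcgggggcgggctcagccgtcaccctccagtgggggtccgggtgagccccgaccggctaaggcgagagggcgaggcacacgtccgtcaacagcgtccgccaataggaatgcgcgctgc
These 2 stretches hold 12 and 22 CpG dinucleotides, against 1, 1, 8 and 3 in the 4 of highest ratio, in the order above. The 2 of lowest ratio hold 4 and 2.

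Most isolated lincRNA promoters had few fragments in HSCs. The median promoter had 0.404 FPM among young cells and 0.421 FPM among aged cells, against 15.5 and 16.2 FPM for the 20807 protein-coding promoters. Of the 4587, 62 had no fragment in either library, 3350 had from 1 to 99, and 1175 (25.6%) reached the 100 fragments that were required for a ratio. The same minimum was reached by 69.9% of protein-coding promoters and by 72.2% of the 622 lincRNA promoters with a protein-coding TSS within 5 kb. Low levels were not particular to isolated lincRNA promoters. The 25213 promoters of other gene types had medians of 0.317 and 0.344 FPM, and 20.9% of them reached 100 fragments. A peak of the young library touched 1264 isolated promoters (27.6%) and a peak of the aged library touched 1229 (26.8%). Both libraries had a peak at 1150 of them, the young library alone at 114 and the aged library alone at 79. The promoters with a peak in 1 library were low in both, with medians of 1.21 young and 0.918 aged FPM where the peak was young, and of 0.895 young and 1.57 aged FPM where it was aged.

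On either side of the isolation limit the promoters were low. The 54 lincRNA promoters just inside it, with the nearest protein-coding TSS 5 to 6 kb away, had medians of 1.72 FPM in both libraries. The 59 just outside it, at 4 to 5 kb, had medians of 1.07 and 1.22 FPM. Their median log2 ratios were 0.03 (29 promoters of at least 100 fragments) and 0.03 (23 promoters).

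A single place held a large share of the fragments of the whole set. Gm42418, AY036118 and Gm26917 lie side by side on chromosome 17 within 5000 bp of the start of Rn18s-rs5 (RefSeq, chr17:39846354-39848202), an entry for ribosomal RNA sequence, which is the RNA core of the ribosome and is encoded in many copies in the genome. Their windows held 1198 young and 1539 aged FPM (Gm42418), 1092 and 1443 FPM (AY036118), and 916 and 1152 FPM (Gm26917), far above the next promoter, Gm6410, at 127 and 124 FPM. The windows of Gm42418 and AY036118 overlap, and that of Gm26917 lies apart from both. Together these 3 windows made up 18.1% of young and 21.6% of aged counts summed over all windows of the set. How many genomic copies contribute reads to this stretch was not tested, and sums are therefore given with and without it.

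Sums over windows count a fragment in every window it touches and include fragments outside peaks, so they are given in FPM and are not shares of the library. Summed over all members, isolated lincRNA promoters had 17697 FPM in young and 19105 FPM in aged cells, a ratio of 1.080 (95% interval 1.076 to 1.084). Intervals of sums treat every count as independent, although overlapping windows share fragments, so they understate the counting error. Without the 3 promoters at the ribosomal RNA sequence the sums were 14491 and 14971 FPM, a ratio of 1.03 (1.03 to 1.04). Protein-coding promoters summed to 456754 and 439638 FPM, a ratio of 0.963. The lincRNA promoters near a protein-coding TSS had a ratio of 0.972 (0.968 to 0.976), on the side of the protein-coding promoters. The 3412 isolated members with fewer than 100 fragments had a ratio of 1.06 (1.05 to 1.08), and 6264 protein-coding promoters that low had a ratio of 1.04 (1.03 to 1.05).

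Among the 1175 isolated promoters with at least 100 fragments, the log2 ratios of aged over young had a median of 0.06 (95% interval 0.04 to 0.09), and 690 of them (58.7%) were above 0. The median was -0.05 (-0.06 to -0.05) over 14543 protein-coding promoters and -0.04 over all 21440 promoters of that level. From the 5th to the 95th percentile the isolated promoters ran from -0.42 to 0.84, a wider span on the higher side than protein-coding promoters, which ran from -0.25 to 0.45.

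A promoter was called different when it was at least 1.5-fold apart in FPM and its exact interval excluded equality. By this rule 122 isolated lincRNA promoters (10.4%) were called higher in aged HSCs, against a background of 4.6% over promoters of all autosomal genes. 33 (2.81%) were called lower, against a background of 1.19%. After thinning every cell to 3000 in-peak fragments, 48 of the 122 and 9 of the 33 were still called. Thinning left 828 members with at least 100 fragments. Of these, 70 (8.45%) were called higher and 15 (1.81%) lower, against 3.04% and 0.661% of all promoters so thinned. The 122 and 33 promoters called without thinning were spread over 19 and 16 chromosomes. Of the 122 called higher, 34 were at least 2-fold higher, 116 held a peak of the aged library and 104 a peak of the young library. Of the 33 called lower, 4 were at least 2-fold lower, 30 held a peak of the young library and 22 of the aged library. The shares at least 2-fold apart over all promoters were not counted.

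**Figure D1:**
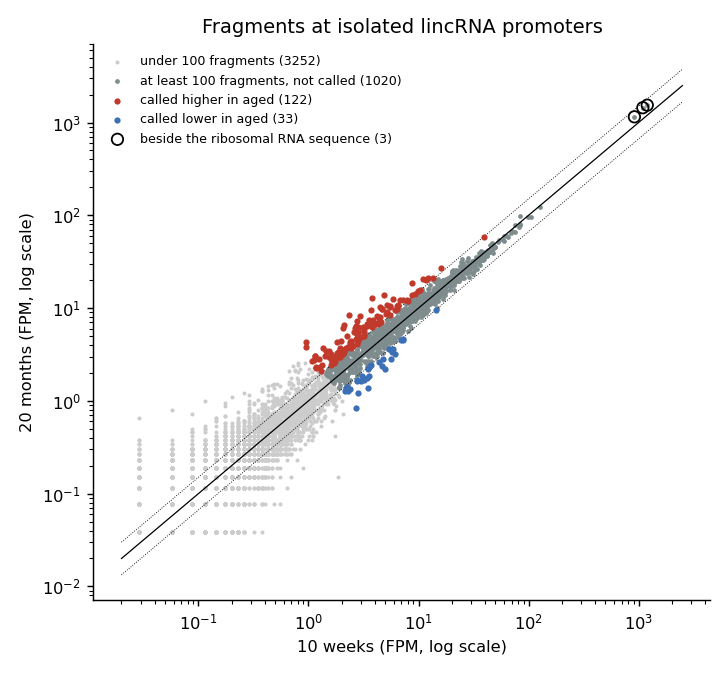
FPM of each isolated lincRNA promoter in the 10-week library (x axis, log scale) and the 20-month library (y axis, log scale), for promoters with a fragment in both. The solid line marks equality and the dotted lines a 1.5-fold difference, and red and blue points are the 122 promoters called higher and the 33 called lower in aged HSCs. Called promoters sit mostly below 20 FPM, and the 3 circled points at the upper right are the ribosomal RNA neighbours.

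The share called was set against promoters of like level, because low promoters are called more often in every class. Among promoters of 100 to under 500 fragments, 15.6% of 666 isolated lincRNA promoters, 18.2% of 2118 protein-coding promoters and 15.1% of all 5441 promoters were called higher. Their median log2 ratios were 0.14 (0.10 to 0.18), 0.13 (0.11 to 0.15) and 0.11 (0.09 to 0.12). The share called lower was 4.80% of the isolated lincRNA promoters and 4.34% of all promoters of that level. At these levels the shares of lincRNA promoters called higher and lower were thus near the background of their level. Among promoters of 500 fragments or more, leaving out the ribosomal RNA neighbours, 18 of 506 isolated lincRNA promoters (3.56%) were called higher, against 1.04% of all 15999. In this upper group 1 lincRNA promoter (0.198%) was called lower, against 0.125% of all. The median log2 ratio there was -0.0006 (-0.02 to 0.02) for lincRNA promoters and -0.06 (-0.07 to -0.06) for protein-coding promoters. Within that upper group the lincRNA promoters had the lower levels, with medians of 15.7 young FPM against 32.7 for protein-coding promoters. Between 500 and 1000 fragments, 5.79% of lincRNA and 4.12% of protein-coding promoters were called higher, and the median log2 ratios were 0.04 (0.002 to 0.09) and 0.09 (0.08 to 0.11). Between 1000 and 2000 the lincRNA promoters lay above the protein-coding ones, with medians of 0.02 (-0.01 to 0.04) and -0.04 (-0.05 to -0.04). There, 2 of 172 (1.16%) against 0.328% were called higher. At 2000 or more, the medians were -0.08 (-0.10 to -0.05) and -0.09 (-0.09 to -0.09), and 1 of 75 (1.33%) against 0.117% were called higher.

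**Figure D2:**
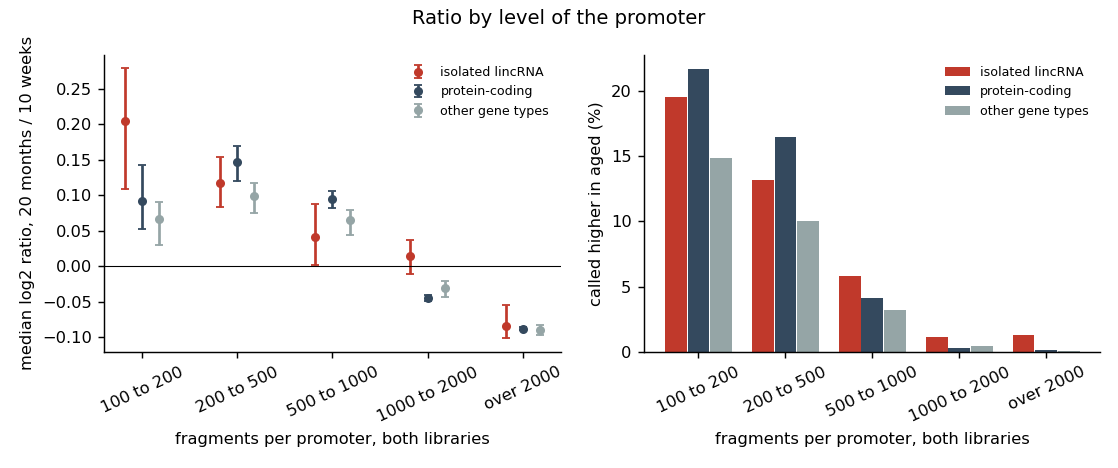
Left, median of the log2 ratios on the y axis with its 95% order-statistic interval, by the number of fragments per promoter over both libraries (x axis), for isolated lincRNA, protein-coding and other promoters. Right, share of the same promoters called higher in aged HSCs (y axis, percent). In all 3 classes the median goes from above 0 at 100 to 200 fragments to below 0 at 2000 or more, and the share called higher is largest in the lowest level.

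The promoters with the highest ratios were low in young HSCs and came from lincRNA genes that carry placeholder names (Gm, Rik or a clone name). Gm12440 had 33 young and 112 aged fragments, or 0.952 and 4.28 FPM, a ratio of 4.50 (95% interval 3.03 to 6.85). Gm31393 had 33 and 99 fragments, a ratio of 3.98 (2.66 to 6.09), and Gm45159 had 81 and 222, a ratio of 3.63 (2.80 to 4.74). Few cells carried these fragments. A fragment at Gm12440 was found in 33 of the young cells (0.675%) and in 105 of the aged cells (3.08%), and after thinning every cell to 3000 in-peak fragments in 0.376% and 1.25%. Gm12860 had 131 and 339 fragments, a ratio of 3.43, in 2.60% of young and 9.02% of aged cells. 3930402G23Rik, whose nearest protein-coding TSS is that of the insulin receptor substrate gene Irs2 at 79.8 kb, had 167 and 362 fragments, a ratio of 2.87 (2.38 to 3.47). The others were Gm30459 (73 and 170 fragments), 5330439M10Rik (71 and 161), Gm48703 (2.91 and 8.30 FPM), Gm28231 (47 and 96) and AC151280.2 (40 and 80), with ratios from 2.65 to 3.09. None of the 10 was CpG-rich. Several of these ratios depended on the width of the window. With 500 bp to either side in place of 1 kb, the log2 ratio of Gm12440 was 0.99 in place of 2.14. With 2500 bp, Gm12860 had 0.99 in place of 1.77 and 5330439M10Rik 0.41 in place of 1.58, which is under the 1.5-fold limit.

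What lay beside these promoters differed from one to the next. The TSS of Gm45159 lies inside a protein-coding gene on the same strand, and the others of the 10 highest lie outside such genes. Among the 10 lowest, named next, Gm17275 lies inside one on the opposite strand. In the flanks 2 to 5 kb from the TSS, Gm12440 had 0.721 young and 5.39 aged FPM, so its surroundings were higher in aged HSCs along with the promoter. Flank values here are totals over both sides, a longer stretch than the promoter window. They can be compared between the libraries but not with the FPM of the promoter. Gm12860 had flanks of 14.8 and 25.8 FPM. The flanks of 3930402G23Rik had 41.8 and 37.8 FPM and those of 5330439M10Rik 7.50 and 6.50 FPM, lower in the aged library, while their promoters were higher. In the flanks, 7 of the 10 highest promoters and 5 of the 10 lowest ones named next had more FPM in the aged library. Several of these flanks held few fragments, such as 0.317 and 0.727 FPM at Gm45159. The same share over all promoters was not counted, so the 2 counts are not read as a contrast.

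The lowest ratios were smaller in size. Gm12678, 37.6 kb from the TSS of the glyoxylate reductase gene Grhpr, had 93 young and 22 aged fragments, or 2.68 and 0.841 FPM, a ratio of 0.313 (0.187 to 0.503). A130077B15Rik had 120 and 36 fragments, a ratio of 0.398 (0.266 to 0.581). Gm48265, near the chemokine gene Ccl28, had 98 and 32 fragments, and A630091E08Rik, 73.7 kb from Lrrc32, had 172 and 57, with ratios of 0.433 and 0.439. The other 6 were Gm49654, Gm17275, Gm14487, Gm32389, Gm30726 and Gm11754, with ratios from 0.501 to 0.530. Some of these differences lay away from the annotated start. The densest cuts were 922 bp from the TSS in Gm12678, 725 bp in Gm49654 and 592 bp in Gm17275. They were 688 bp away in Gm32389 and 997 bp in Gm30726, and within 200 bp in the rest of the 10. Every promoter of these 10 had between 93 and 211 fragments in the young library, so their intervals are wide, and none was CpG-rich. With 500 bp to either side the log2 ratio of Gm12678 was -0.59 in place of -1.62 and that of Gm30726 -0.03 in place of -0.91. With 2500 bp, A630091E08Rik had -0.22 in place of -1.17, and the log2 ratio of Gm14487 was -0.56 in place of -0.92. On fragments shorter than a nucleosome's DNA, A130077B15Rik had -2.05 in place of -1.30, the log2 ratio of Gm12678 was -2.26, and Gm17275 had -0.53 in place of -0.97. After thinning every cell to 3000 in-peak fragments A130077B15Rik had -0.68 and the log2 ratio of Gm11754 was -0.53 in place of -0.90.

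**Figure D3:**
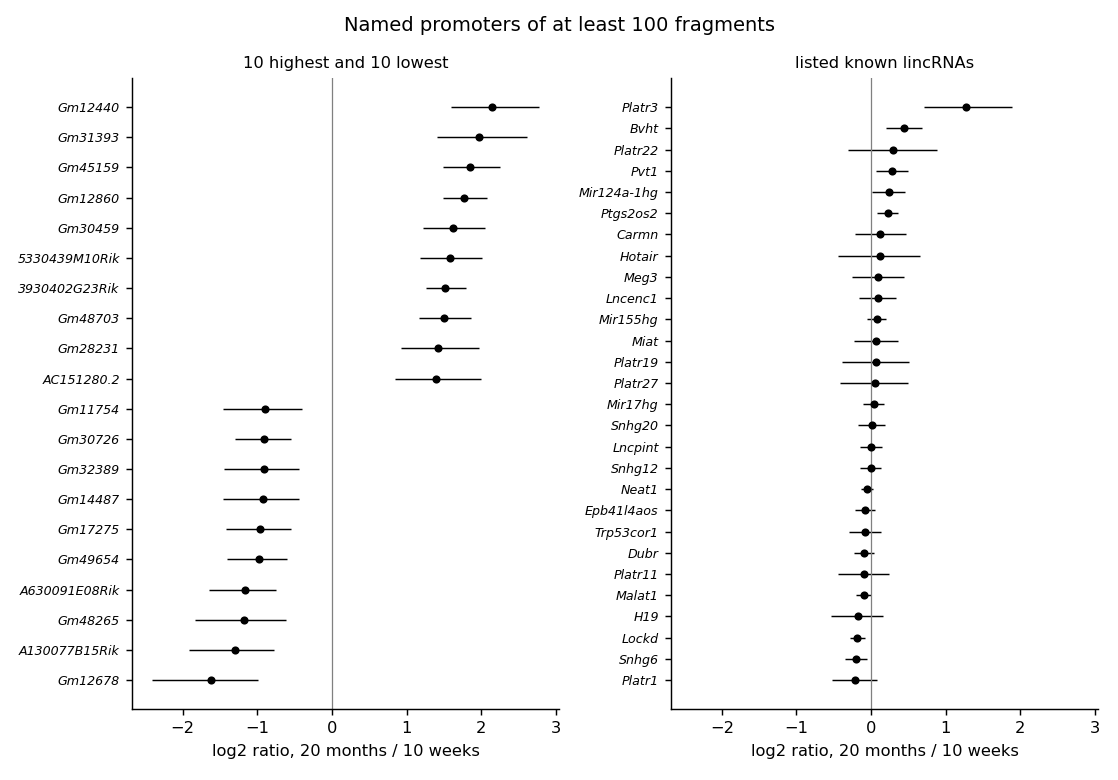
Log2 ratio of aged to young (x axis) with its exact 95% counting interval for the 10 highest and 10 lowest promoters (left) and for the 28 promoters of known lincRNAs with at least 100 fragments (right). The left panel shows promoters selected for their ratios, and on the right only Platr3 lies beyond 1.5-fold.

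Apart from the ribosomal RNA neighbours, the most open promoters were well within 1.5-fold of each other in the 2 libraries. Gm6410 had 4402 young and 3250 aged fragments, with a ratio of 0.978 (0.935 to 1.02), and at least 1 fragment in 57.4% of young and 59.4% of aged cells. 6720427I07Rik had 104 and 96.9 FPM, Gm26887 99.5 and 95.9 FPM, Gm20732 83.4 and 77.8 FPM, and 1700096K18Rik 81.7 and 74.1 FPM. Of these most open promoters, 2410080I02Rik was the one on the higher side, with 83.2 and 97.1 FPM and a ratio of 1.17 (1.11 to 1.23). It lies 6.33 kb from the TSS of Klf9, which encodes a Kruppel-like transcription factor. All 6 are CpG-rich, and the list of the 10 most open members is completed by the ribosomal RNA neighbours and Neat1, described below. No promoter with 1000 or more fragments was called lower, and 3 were called higher, named here after their values were seen. Between 1000 and 2000 fragments, 2 of 172 members (1.16%) were called higher, against 0.328% of protein-coding and 0.460% of other promoters. At 2000 or more it was 1 of 75 (1.33%), against 0.117% and 0.102%, so the member shares rest on very few promoters. Protein-coding promoters called lower were 0.117% and 0.0333% at these 2 levels. Gm38399 had 1350 young and 1532 aged fragments, a log2 ratio of 0.59 (0.48 to 0.70), 9230112J17Rik had 554 and 700, a log2 ratio of 0.74 (0.58 to 0.91), and Gm32051 had 469 and 546, a log2 ratio of 0.62 (0.44 to 0.81). Gm38399 lies at the edge of the 1.5-fold limit.

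Of the listed lincRNAs with known roles, 43 were members and 28 had at least 100 fragments. Their median log2 ratio was 0.04, 1 was called higher and none lower, against the 4.6% and 1.19% of the background. The intervals of 8 excluded equality, and the same share over all promoters was not counted. Equality is not the centre at these levels. The median log2 ratio of protein-coding promoters was 0.09 at 500 to 1000 fragments, -0.04 at 1000 to 2000 and -0.09 at 2000 or more.

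Neat1 was the most open of the list, followed by Malat1 and Lockd at similar levels. Neat1, which builds paraspeckles, had 2883 young and 2098 aged fragments (83.2 and 80.2 FPM), a ratio of 0.964 (0.911 to 1.02). Its neighbour Malat1, a nuclear speckle RNA, had 58.6 and 54.6 FPM, a ratio of 0.932 (0.870 to 0.998). Lockd, transcribed near the Cdk inhibitor gene Cdkn1b and 8.69 kb from its TSS, had 59.6 and 52.5 FPM, a ratio of 0.881 (0.822 to 0.943). For Neat1 and Malat1 the densest cuts lay 533 and 940 bp upstream of the annotated TSS, and for Lockd 281 bp upstream.

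Among the host genes of small RNAs, Snhg6, which hosts a small nucleolar RNA, had 996 and 654 fragments, a ratio of 0.870 (0.787 to 0.961). Snhg12 (30.5 and 30.4 FPM) and Snhg20 (17.9 and 17.9 FPM) had nearly the same values in both. Mir17hg, the host of the miR-17-92 microRNA cluster, had 27.6 and 28.3 FPM, and Mir155hg, the host of miR-155, a regulator of immune and blood cells, had 30.6 and 32.2 FPM. Mir124a-1hg, the host of a neuronal microRNA, had 10.1 and 11.9 FPM, with a ratio of 1.18 (1.01 to 1.38). Only the intervals of Snhg6 and Mir124a-1hg among these excluded equality.

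The next group holds lincRNAs known to act on genes beside them, or to respond to p53 or inflammatory signals. Pvt1, 52.6 kb from Myc, had 11.0 and 13.3 FPM, a ratio of 1.21 (1.04 to 1.40). Ptgs2os2, also called lincRNA-Cox2, is induced by inflammatory signals in macrophages and lies 64.9 kb from Ptgs2. It had 24.1 and 28.1 FPM, a ratio of 1.17 (1.05 to 1.29). Trp53cor1 (lincRNA-p21), a p53 target 11.8 kb from Cdkn1a, had 12.9 and 12.2 FPM. Lncpint, another p53-responsive RNA, had 26.2 and 26.1 FPM. Gm14005 (Morrbid), which limits expression of the death factor gene Bcl2l11 in short-lived myeloid cells, had 18 and 24 fragments, too few for a ratio.

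The imprinted and developmental lincRNAs ranged from a few fragments to well open. H19 and Meg3, both imprinted and studied in the quiescence of HSCs, had 4.99 and 4.40 FPM and 4.47 and 4.78 FPM. Mirg, from the imprinted cluster of Meg3, had 7 fragments in each library. The Hox antisense RNA Hotair had 1.88 and 2.03 FPM, and the neural RNA Rmst had 12 and 10 fragments. Bvht, known from heart development, had 8.28 and 11.2 FPM, a ratio of 1.36 (1.15 to 1.60), or 0.44 on the log2 scale, and its neighbour Carmn had 4.68 and 5.09 FPM. The Bvht value depended on how it was counted, with log2 ratios of 0.14 with 2500 bp to either side, 0.20 on fragments shorter than a nucleosome's DNA, 0.78 after thinning and 1.17 once the flanks were subtracted. Dubr (30.8 and 28.9 FPM) and Epb41l4aos (30.5 and 28.9 FPM) were well open, and Miat (6.23 and 6.54 FPM) and Lncenc1 (8.86 and 9.41 FPM) were lower. The intervals of Dubr, Epb41l4aos, Miat and Lncenc1 spanned equality.

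The Platr transcripts, named for their link to pluripotency in embryonic stem cells, gave 18 members, and most had few fragments. The called one was Platr3, with 39 young and 72 aged fragments, a ratio of 2.45 (1.63 to 3.71). It sat just above the 100 fragments required, its log2 ratio was 0.67 in place of 1.27 after thinning, and its densest cuts lay 524 bp upstream of the TSS. Platr1 (6.70 and 5.74 FPM), Platr11 (4.99 and 4.67 FPM), Platr19 (2.83 and 2.94 FPM), Platr27 (2.71 and 2.79 FPM) and Platr22 (52 and 48 fragments) had intervals that spanned equality. The other 12 had fewer than 100 fragments.

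CpG-rich members were open more often than the others, although most open members were not CpG-rich. Leaving out the ribosomal RNA neighbours, 166 of 4584 members were CpG-rich, here a CpG observed to expected ratio of at least 0.6 and a GC content of at least 50% over 500 bp. They had medians of 13.6 young and 14.2 aged FPM, and 76.5% reached 100 fragments, against 0.404 and 0.421 FPM and 23.7% for the 4418 others. Of the CpG-rich members of at least 100 fragments, 5 of 127 (3.94%) were called higher and none lower, near the backgrounds of 4.6% and 1.19% over all promoters, and their median was -0.02 (-0.06 to 0.02) on the log2 scale. Among the others, 117 of 1045 (11.2%) were called higher and 33 (3.16%) lower, with a median of 0.08 (0.05 to 0.10). Protein-coding promoters split in the same order, with 1.87% of CpG-rich and 6.76% of other promoters called higher. CpG-rich members were also the higher ones. At the like level of 100 to under 500 fragments the shares lay close together, with 3 of 22 CpG-rich members (13.6%) and 15.7% of 644 others called higher, and medians of 0.18 (0.01 to 0.46) and 0.14 (0.10 to 0.18).

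Members whose windows were under 25% repeats reached 100 fragments more often (30.1% of 2847) than those with 50% or more (5.75% of 348). The median log2 ratio was 0.07 (0.05 to 0.10) and 0.02 (-0.11 to 0.24) in these groups. By the number of exons, 230 members with 1 exon, 1675 with 2 and 2679 with 3 or more had 9, 43 and 70 promoters called higher, or 14.3%, 9.21% and 10.9% of those measured, beside 10.4% of all members and the background of 4.6%.

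Distance from protein-coding genes went with both level and ratio. Members 5 to 20 kb from the nearest protein-coding TSS had a median of 0.851 FPM in the young library, those 20 to 100 kb away 0.577 FPM, and those over 100 kb away 0.216 FPM. The shares called higher were 7.33% of 273, 8.12% of 579 and 17.2% of 320 promoters of at least 100 fragments, beside the background of 4.6%. The median log2 ratios were 0.01 (-0.03 to 0.04), 0.05 (0.02 to 0.08) and 0.16 (0.11 to 0.22). Within the narrower level of 100 to under 500 fragments, the shares called higher were 9.03%, 11.6% and 26.4%, beside 15.1% of all promoters of that level, so that the nearer groups lay below this share and the farthest above it. Their medians were 0.05 (-0.01 to 0.13), 0.12 (0.08 to 0.18) and 0.26 (0.18 to 0.35). The shares called lower in that level were 3.87%, 6.27% and 3.37%, beside 4.34% of all promoters of that level. Across 1172 promoters, Spearman's rho of distance with the log2 ratio was 0.15, a description over promoters that share the same 2 libraries.

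Most of the nearest protein-coding promoters were not called. Of 93 members called higher whose nearest protein-coding promoter also had at least 100 fragments, 6 (6.45%) had that neighbour called higher and none lower, beside 495 called higher of all 14543 protein-coding promoters of that minimum, a smaller share. The median log2 ratio of the neighbours was -0.01. Of 29 members called lower, no neighbour was called, and the median of these neighbours was -0.09. Of all protein-coding promoters of that minimum, 0.605% were called lower. The neighbours of 831 uncalled members had a median of -0.05, with 16 (1.93%) called higher. Across all 953 pairs rho was 0.19.

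The flanks of called promoters were read in the same way, although the promoters were selected for their difference and the flanks were not, so their sizes cannot be compared. At 122 members called higher, the mean level went from 1.99 to 3.62 FPM per kb in the promoter and from 0.895 to 1.10 FPM per kb in the flanks 2 to 5 kb away. At 33 members called lower, it went from 2.20 to 1.28 FPM per kb in the promoter and from 0.849 to 0.779 in the flanks. Where the flanks had at least 100 fragments, their median log2 ratio was 0.25 (0.12 to 0.43) beside 79 members called higher, 0.43 (0.34 to 0.52) beside 219 protein-coding promoters called higher, and -0.08 (-0.28 to 0.10), an interval that spans 0, beside 25 members called lower. In the 1017 uncalled members both were nearly the same, at 6.18 and 6.21 FPM per kb in the promoter and 1.38 and 1.41 in the flanks.

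In many windows the densest cuts lay away from the annotated start. Of the 1172 members of at least 100 fragments, 462 had them within 200 bp of the TSS and 710 farther away, whereas 9832 of 14543 protein-coding promoters of that minimum had them within 200 bp. The density within 100 bp of the TSS was 4.92 times (young) and 4.69 times (aged) that of the outermost 200 bp of windows that reach 2 kb to either side. For CpG-rich members it was 23.7 and 21.6 times, close to the 24.3 and 22.3 times of protein-coding promoters, and for the other members 3.59 and 3.49 times. CpG-rich members had more cuts in the kb upstream than in the kb downstream, by 1.49 times in young and 1.44 times in aged HSCs.

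**Figure D4:**
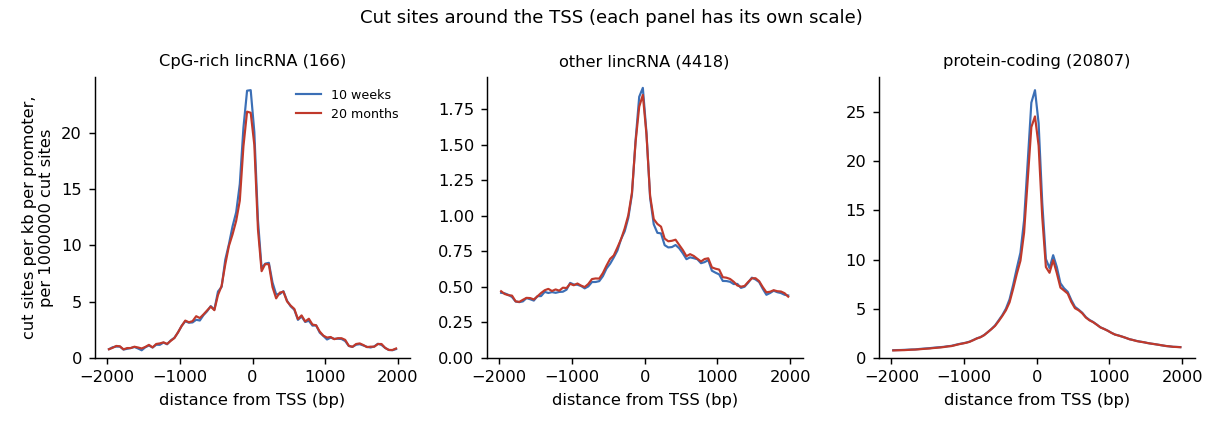
Cut sites per kb and promoter, per 1000000 cut sites of the library (y axis, a scale of its own in each panel), by distance from the TSS in bp (x axis, negative is upstream), in 10-week and 20-month cells. CpG-rich lincRNA promoters have the narrow central peak of protein-coding promoters, while the other lincRNA promoters have a low peak on a broad base.

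Fragment length differed between the libraries over the whole genome. Fragments shorter than the DNA wrapped on a nucleosome were 59.8% of all fragments in young and 55.0% in aged cells. At isolated lincRNA promoters they were 61.9% and 58.5%, and at protein-coding promoters 67.6% and 63.9%. Counted on these short fragments alone, the median log2 ratio of isolated promoters was 0.01 over the 915 promoters with at least 100 of them, and 71 (7.76%) were called higher against a background of 3.10%. Fewer promoters enter this count than the one above, and the part of fragment length in the difference was not tested.

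The searched motifs were fixed strings on both strands of the 300 bp around the densest cuts. They were TGANTCA for AP-1 and GCTGANTCA for its CNC relatives, which contains the AP-1 string. The string of CRE was TGACGTCA, that of PU.1 GAGGAAGT, and that of other ETS factors CCGGAAGT. For RUNX it was TGTGGTT. For GATA factors it was AGATAAG. HOXA9 was searched as TGATTTAT and MEIS as TGACAG, and CTCF was searched as CCAGGGGGC. CEBP was TTGCNNCAA, IRF was AAANNGAAA and STAT was TTCCNGGAA. The E-box was CAGCTG. MYB was AACNGTT and FOX was TGTTTAC. SP/KLF was GGGCGGGG and NRF1 was GCGCATGCG. Each share is given for the 1172 members of at least 100 fragments (ribosomal RNA neighbours left out), then for all promoters of that minimum and for all 51229 promoters. AP-1 strings were in 13.3%, 5.76% and 8.28%, and PU.1 strings in 7.94%, 4.06% and 3.93%. All searched strings except SP/KLF, ETS, NRF1, CTCF and CRE were more frequent in the members than on both bases. GATA strings were in 4.69%, 2.04% and 3.25%, and CNC strings in 3.84%, 1.56% and 1.81%. The surplus was thus not particular to AP-1, PU.1, RUNX or MYB. Neither base was matched to the members. Of the 21440 promoters of that minimum, 9989 were CpG-rich protein-coding ones, and most of the 51229 did not reach it. The strings typical of CpG-rich promoters were rarer in the members than on either base, with SP/KLF at 8.28%, 26.8% and 11.98%, ETS at 1.45%, 5.88% and 2.70%, and NRF1 at 0.768%, 2.45% and 1.06%. RUNX strings were in 8.79%, 5.35% and 6.92%. Of the 122 members called higher, 22 held AP-1 and 15 (12.3%) RUNX. Of the 33 called lower, 3 (9.09%) held AP-1 and 7 (21.2%) RUNX. MYB strings were in 5.38%, 3.19% and 4.21%, in 6.56% of the members called higher and in 4 (12.1%) of those called lower. Across all searched strings, the median log2 ratio was highest for the 31 members with CEBP strings, at 0.22 (0.03 to 0.41). Next were the 63 with MYB strings, at 0.15 (0.03 to 0.29). CEBP and MYB are named for this rank, and both intervals include the median of members without the string, 0.06 in each case. The 97 with SP/KLF strings had -0.01 (-0.05 to 0.04) and those without 0.07. The 156 members with AP-1 had 0.11 (0.06 to 0.19) and those without 0.05. A match is a string of letters and not a measured binding site.

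Per-cell sums over isolated lincRNA promoters were close to pure counting after thinning, but only with the ribosomal RNA neighbours left out. After each cell was thinned to 3000 in-peak fragments, which left out 100 young and 134 aged cells of lower depth, the median young cell had 50 fragments in these promoters and the median aged cell 53. Without the ribosomal RNA neighbours the medians were 42 (5th to 95th percentile 31 to 54) and 44 (33 to 56). The variance over the mean was then 1.10 and 1.16, little above the 1 of pure counting, against 1.47 and 2.15 with those neighbours included. Thinning itself moves this value towards 1, and a sum over many promoters does not show how single promoters are spread over cells. Of 3271 aged cells, 56.8% lay above the young median of 42, against 47.6% of 4787 young cells. Cells of 1 library are not replicates, and these shares describe the libraries only. Unthinned, the medians with all members were 115 and 134.

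**Figure D5:**
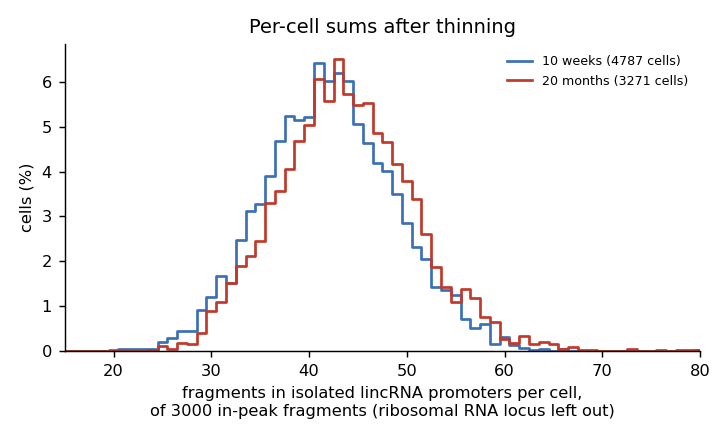
Share of cells (y axis, percent) by the number of fragments in isolated lincRNA promoters per cell after thinning to 3000 in-peak fragments (x axis), with the ribosomal RNA neighbours left out. The 2 curves overlap over most of their range, with medians of 42 in 10-week and 44 in 20-month cells.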

How the data were processed

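Libraries were prepared by the authors with Chromium Next GEM Single Cell ATAC kits v1.1 and processed with Cell Ranger ATAC on mm10, per the labels and the study's methods. The deposited values are counts: each listed fragment with its barcode and supporting read pairs, and counts per barcode with the authors' cell call. No normalization had been applied. Cells were barcodes called by the authors with 3000 to 20000 in-peak fragments in their table, so doublets were not called but very deep barcodes were left out. The young library held 53786133 fragments and 5028 called cells, the aged library 48333115 and 3694. Peaks were called here per library on cut sites in 151 bp windows against the larger of the genome mean and the 10000 bp around (Poisson, q under 0.001), merged across gaps of 50 bp, kept from 100 bp, and combined to 167276 peaks. A fragment counted once per promoter if at least 1 end lay in the window.

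FPM is fragments per 1000000 fragments in the combined peaks (34652674 young, 26150898 aged). Log2 ratios used a pseudocount of 1. Intervals of ratios and shares are exact binomial (Clopper-Pearson) and those of medians are binomial order-statistic intervals. They cover counting error or the spread over promoters only, since PCR duplicates were removed by the authors but 1 library stands for each age. Ratios were read from 100 fragments over both libraries, and calls needed a 1.5-fold difference with an interval that excluded 1. Repeat share was the soft-masked share of the window. Annotation was GENCODE M21 and sequence was RefSeq GRCm38.p6, the build of mm10. The counting of calls was tested on simulated counts. Members, gene lists and motifs were chosen with earlier results of these data known. Named promoters were all members of a fixed list of known lincRNAs, the 10 with most fragments, and the 10 highest and 10 lowest ratios from 100 fragments. The study's own lists of changed genes and regions were not used here. Tools were Python 3.11.15, numpy 2.4.6, scipy 1.17.1 and pandas 2.3.3.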

Additional observations from a re-analysis of the deposited data

How the results depend on the processing

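No library has a replicate, so leaving out a replicate was not an option, and no paired analysis was possible because each age has 1 sample. The median log2 ratio of isolated lincRNA promoters (0.06) stayed above 0 under every alternative tried. It left its interval when scaled to all autosomal fragments (0.030) or to protein-coding promoters (0.12) and with fragments shorter than a nucleosome's DNA (0.0085, with an interval that includes 0). Its distance above the protein-coding median was 0.12 as reported and 0.05 with such short fragments. That distance compares sets of unlike level, with medians of 6.55 and 28.5 young FPM. At like level the lincRNA and protein-coding medians were 0.14 and 0.13 (100 to under 500 fragments) and 0.04 and 0.09 (500 to 1000). They were 0.02 and -0.04 between 1000 and 2000, and -0.08 and -0.09 at 2000 or more.

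The ratio of summed fragments (1.08) was 1.06 scaled to all autosomal fragments, 1.12 scaled to protein-coding promoters, 1.07 and 1.09 with windows of 500 and 2500 bp, 1.10 with isolation of 20 kb, 1.05 without members whose windows overlap, 1.08 with uncalled barcodes, 1.09 with cells of 3000 to 10000 in-peak fragments, 1.09 with such short fragments, 1.06 with flanks subtracted and 1.08 after thinning. Chosen after seeing the data, it was 1.03 without the ribosomal RNA neighbours, 1.06 over members under 100 fragments and 1.03 over members with a peak and without those neighbours. Most of the excess over 1 came from the ribosomal RNA neighbours.

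In place of the 122 promoters called higher there were 72 with a minimum of 200 fragments (of 919 measured), all among the 122, 71 with such short fragments, of which 61 were among them, and 70 after thinning, of which 48 were. In place of the 33 called lower there were 58 with a minimum of 50 fragments, 14 with 200, 21 and 51 with windows of 500 and 2500 bp, 17 with cells of 3000 to 10000 and 15 after thinning. All 33 were still called with a minimum of 50, and in the same order 14, 13, 13, 14 and 9 of them under the other settings, so most of the lower calls were lost there. Fewer fragments or promoters enter most of these. The percent called higher among all promoters moved too, to 3.11% at 200 fragments, 3.10% with short fragments and 3.04% after thinning. The percent called lower among all promoters went from 1.19% to 1.90% and 0.567% at 50 and 200 fragments, 0.922% and 1.54% with windows of 500 and 2500 bp, 0.880% with cells of 3000 to 10000 and 0.661% after thinning. With flanks subtracted, 119 promoters had nothing left in either library and took no part. Promoters holding a peak moved by less than 1.5 times with a stricter q or a longer overlap. The median per cell of 50 young and 53 aged was 42 and 44 without the ribosomal RNA neighbours and 115 and 134 without thinning. Of 1211 values of 72 named promoters under these alternatives, 1163 stayed within their intervals, 48 moved and none that was called changed sign. With flanks subtracted, 23 of the 72 had nothing left in at least 1 library and gave no value. A change of sign could not be seen for them under that setting. Among promoters not called, Platr11 moved from -0.09 to -0.88 with short fragments and to 0.30 after thinning, Neat1 from -0.05 to 0.11 after thinning, Gm6410 from -0.03 to 0.07 with short fragments, and Platr22 from 0.29 to 1.73 with flanks subtracted. Platr29, Platr30 and Mirg, with under 100 fragments, also changed sign. Depth limits the low promoters: 3412 of 4587 had under 100 fragments, and no level or ratio was read from them singly as a difference.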
